A study of Mus musculus with 2 samples.

Results

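Serpins are a superfamily of proteins that mostly inhibit serine proteases. An exposed reactive centre loop acts as bait: the protease cuts the loop, stays bound to it and is dragged across the serpin and distorted, so that one inhibitor molecule is spent per protease. Names give the clade by a letter, and a few members have lost inhibition and serve as hormone carriers or chaperones. The liver makes the plasma serpins that hold back neutrophil elastase, thrombin, plasmin and complement, whereas clade B serpins stay inside cells and guard them against their own or incoming proteases.

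Of 31053 gene rows in the mouse liver single-cell table, 61 carried a symbol that begins with Serpin and does not end in ps. The 35 with at least 20 unique molecular identifiers (UMIs, one per captured RNA molecule) over all 13151 barcodes are described here. These are 17 of the 24 genes of clade A, 9 of 26 in clade B, 2 of 3 in clade E, 2 of 2 in clade F, 1 of 2 in clade I and the single genes of clades C, D, G and H. Of the other 26, 15 had no UMI and the highest had 12, and the lowest gene included, Serpina3i, had 22. Serpin RNA was abundant: the 61 genes held 3466428 UMIs, 2.44% of all gene UMIs, and the 5 copies of the alpha-1-antitrypsin gene, Serpina1a to Serpina1e, held 88.8% of them. Each molecule was counted once from its 3′ end, so UMIs per 1000000 UMIs of a cell or sum (CPM) were compared between genes without division by length.

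The cells came from female C57BL/6 mice (BL6 in the labels) injected at 6 to 8 weeks of age through the tail vein, under hydrodynamic pressure, with a transposon vector and a plasmid for the SB13 transposase. All vectors carried mVenus and NRAS under the CAGGS promoter. In 2 mice NRAS carried the oncogenic G12V change, and in 1 control mouse it carried G12V and D38A, which blocks effector binding, so every mouse carried a transgene and none was untreated. Livers were taken on day 6, cells were tagged by mouse with a hashtag antibody and sorted for mVenus, and the mice were pooled into 1 gene expression library and 1 hashtag library. The mouse Nras row takes up reads of the construct, and NRAS dose was the subject of the study, so cells were ordered by Nras CPM. In the deposited table hashtag 1 stands for the D38A mouse and hashtags 2 and 3 for the G12V mice, whereas in the methods hashtag 3 stands for D38A and hashtags 1 and 2 for G12V. Mice 1, 2 and 3 are therefore named after their hashtags, and no construct was tested against the other.

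Hepatocytes were barcodes with at least 1% of UMIs from Alb, Apoa1, Apoa2, Ttr and Fgb. There were 3357 with at least 500 genes, 5000 UMIs and under 20% mitochondrial UMIs after hashtag doublets were left out. Of these, 1618 had 1 hashtag call, with 290, 1226 and 102 cells and 10108131, 53563380 and 1146363 UMIs for mice 1, 2 and 3. Quartiles of these cells were cut at 20.8, 84.7 and 305 Nras CPM. Mouse 2 thus carried most of the data, and mouse 3 stood apart in depth and in makeup. Its median cell had 7734 UMIs, against 27426 and 43229 in mice 1 and 2, and its sums held 660 to 3721 CPM of 8 endothelial markers, against 16.7 to 37.8 CPM in mouse 2 and 19.1 to 320 CPM in mouse 1. Its quartile 2 held 8 cells. The quartiles also differed in depth, since 1 Nras UMI is a higher CPM in a shallower cell and the shallowest cells could not fall in quartile 2. Median UMIs per cell were 10816, 33334 and 7068 in quartile 1 of mice 1, 2 and 3, and 39175, 41747 and 16318.5 in quartile 2.

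The 5 alpha-1-antitrypsin copies differ most where the protein meets its target. Alpha-1-antitrypsin is the main plasma inhibitor of neutrophil elastase. In the GENCODE models of GRCm38 the coding sequences were 96.3 to 98.5% identical between pairs of copies. The 60 bases shown here, which encode the reactive centre loop, were the most variable stretch of that length, with 18 columns that differed against a median of 4 over all stretches. Each lies in 1 exon on the minus strand of chromosome 12, and capitals mark the columns that differ between copies.
Serpina1a, chr12:103853757-103853816: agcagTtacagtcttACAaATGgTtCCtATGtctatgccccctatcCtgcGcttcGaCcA
Serpina1b, chr12:103728324-103728383: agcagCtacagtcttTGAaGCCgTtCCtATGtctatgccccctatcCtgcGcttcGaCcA
Serpina1c, chr12:103895094-103895153: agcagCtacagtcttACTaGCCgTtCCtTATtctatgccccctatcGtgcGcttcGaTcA
Serpina1d, chr12:103763762-103763821: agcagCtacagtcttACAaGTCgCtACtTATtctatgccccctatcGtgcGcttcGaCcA
Serpina1e, chr12:103947100-103947159: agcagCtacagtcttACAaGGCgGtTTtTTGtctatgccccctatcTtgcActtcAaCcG

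The stretch is close to the 3′ end of each gene, where the reads of this assay start. Of all 91-base windows in the last 500 transcript bases, 21.5% of those of Serpina1a, 14.6% of Serpina1c, 7.07% of Serpina1d and 3.42% of Serpina1b also occurred in another gene, and none of those of Serpina1e did. The counts of single copies are uncertain to that extent. The annotated span of Serpina1b also contains Serpina1d on the same strand. Serpina3k and Serpina3m likewise share a start, at base 104338486 of chromosome 12, so their split is uncertain too, although no such window was shared between them.

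Near the start site all 5 copies held the same 59 bases, in promoters that were 91.7 to 98.4% identical over the RefSeq window. The bases lay at −60 to −2 in Serpina1a and from −55 into the transcript in Serpina1d. In Serpina1e they lay further upstream, at −117 to −59. Capitals mark GTTAAT, the core of the motif of the hepatocyte factor HNF1.
Serpina1a to Serpina1e, shown for Serpina1a, chr12:103863621-103863679, minus strand, GRCm38.p6: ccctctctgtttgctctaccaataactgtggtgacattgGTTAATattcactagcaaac
Searched on both strands, GTTAAT was in 7.1% of 32851 promoter windows and in 8 of the 32 windows of the 27 members that matched. These were windows of Serpinb8, Serpina1a to Serpina1e and Serpina7, which counted more than once. The 5 copies hold it in the same 59 bases, so their windows are not separate cases. The AP-1 motif TGANTCA was in 7.81% of all windows and in 7 of the 32, those of Serpinb5, Serpinb12, Serpinb8 and Serpina1a to Serpina1d. Matches are given as a description.

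Hepatocytes in the highest Nras quartile were compared with those in the lowest, in one edgeR quasi-likelihood fit over 9498 genes with the mouse as a block. Across all genes 1803 passed an adjusted p of 0.05, which is 19% (8.13% higher and 10.9% lower), with a median log2 fold change of 0.00. Of the 25 serpins tested, 2 were higher and 10 lower, and their median was −0.81. Serpinb6a and Serpine2 rose, while antithrombin (Serpinc1), PEDF (Serpinf1), corticosteroid-binding globulin (Serpina6) and 7 others fell. Other plasma serpins, among them Serpina1a, Serpina1b, Serpind1, Serpinf2 and Serping1, did not pass. The other 10 of the 35 genes were too low to be tested. The calls depended on the mice fitted. No fall was called without mouse 2, where 1 serpin, Serpinb6a, passed. Without mouse 1 there were 2 higher and 3 lower, and without mouse 3 there were 3 higher and 12 lower. With no block for the mouse, 2 were higher and 1 was lower. The share of all genes that passed in these refits is not given, so the serpin counts cannot be set against it. By CPM, each of the 10 genes called lower, except Serpina6, was lower in 3 of 3 mice.

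**Figure D1:**
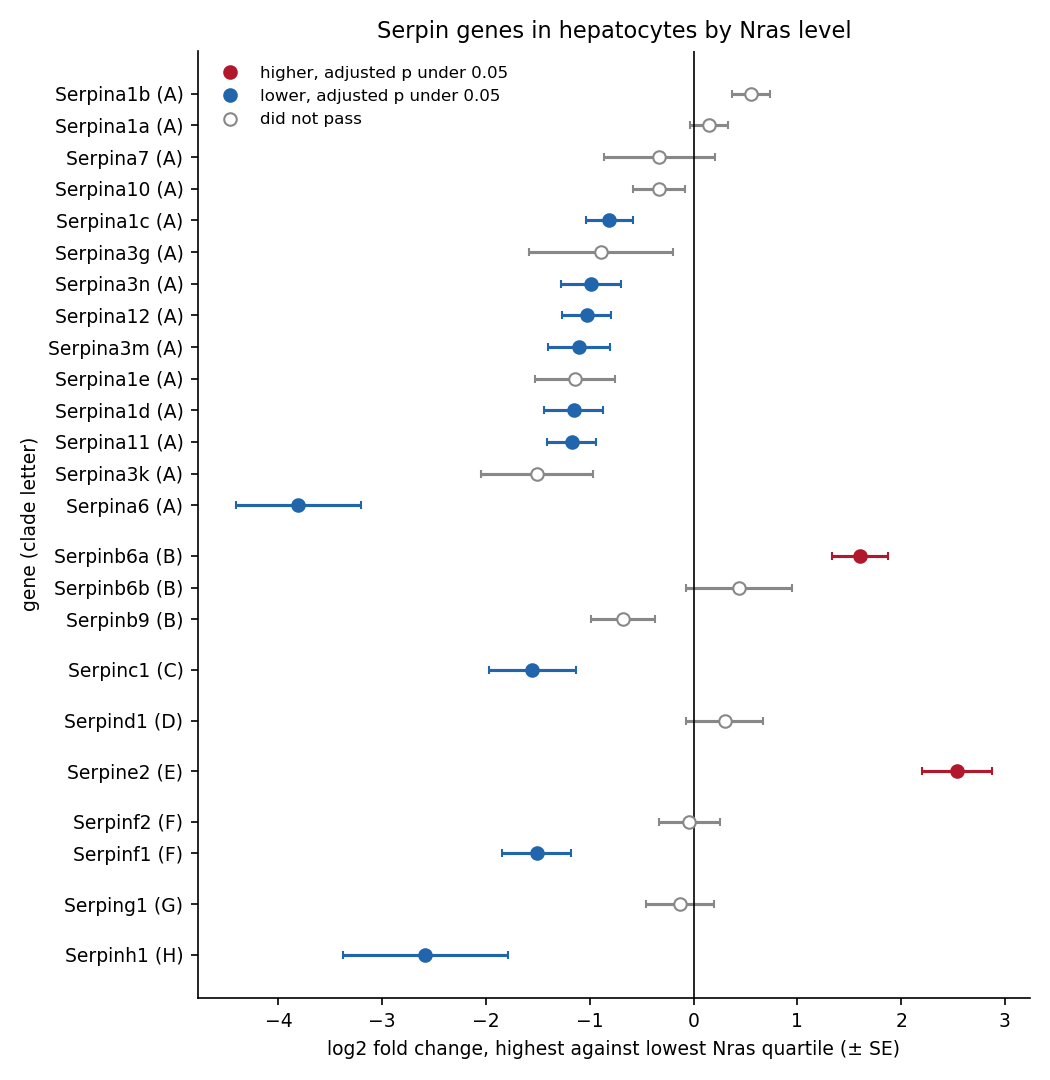
Log2 fold change (± SE) of 24 of the 25 tested serpin genes between hepatocytes in the highest and lowest Nras quartile, from 3 mice and ordered by clade. Filled points passed an adjusted p of 0.05; the 2 red ones, Serpine2 and Serpinb6a, lie above 0 and the 10 blue ones between −3.81 and −0.81.

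Clade B held the clearest rise. Serpinb6a (chr13:33917918-34002794, minus strand) encodes an intracellular inhibitor of cathepsin G and related proteases. From the lowest to the highest quartile it had 159, 204, 244 and 466 CPM in mouse 1, 113, 178, 256 and 451 CPM in mouse 2, and 189.95, 337, 132 and 428 CPM in mouse 3. The highest quartile was above each of the others in all 3 mice, with no overlap between the lowest and the highest. The log2 fold change was 1.60 (SE 0.270, edgeR adjusted p 0.00117), and Serpinb6a passed under all 22 alternative settings, between 1.30 and 2.14. In cells thinned to 5000 UMIs, 35.8% (exact 95% interval 31.1 to 40.7) of the lowest quartile and 74.1% (69.5 to 78.3) of the highest held a Serpinb6a UMI, against 63.7 and 93.8% before thinning.

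Of the other clade B genes, Serpinb6b and Serpinb9 were tested and did not pass. Serpinb9, an inhibitor of granzyme B, was at 3.63 to 25.1 CPM over the 12 sums. Serpinb6b went from 4.33 to 15.4 CPM in mouse 2 and from 39.97 to 23.7 CPM in mouse 1, so the mice did not share a direction. Serpinb6b was called higher at 20000 or more UMIs per cell and with the hepatocyte rule at 2%.

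Serpinb5, which encodes the epithelial serpin maspin, and Serpinb12 were too low for the filter. Their UMIs lay almost wholly in cells with high Nras. Serpinb5 had 0 UMIs in the lowest 2 quartiles of every mouse, 1 and 3 UMIs in quartile 3 of mice 1 and 2, and 7 and 53 UMIs in the highest, where the cell with the most held 16. Mouse 3 had no Serpinb5 UMI. Serpinb12 had 3 UMIs, in 1 cell, below the highest quartile, and 19, 25 and 1 UMIs in it. The neighbours on chromosome 1 (chr1:106861173-106883348 and chr1:106934449-106957080, plus strand) were seen together in a few cells. Among the 704 hepatocytes with at least 300 Nras CPM, whatever their hashtag, 26 had Serpinb5, 25 had Serpinb12 and 5 had both. With no filter on low counts both genes were called higher. Serpinb1a, Serpinb1b, Serpinb8 and Serpinb9b held few UMIs in hepatocytes and were likewise not tested.

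Clade E gave the other rise. Serpine2 (chr1:79794197-79861180, minus strand) encodes protease nexin 1, which inhibits thrombin and urokinase. It had 3.22, 5.93, 6.86 and 19.8 CPM in mouse 1 and 2.16, 2.77, 7.62 and 12.4 CPM in mouse 2. Mouse 3 had 0 UMIs in the lowest quartile, which allows up to 8.63 CPM, and 7.58 CPM from 2 UMIs in the highest. In the 2 deeper mice the highest quartile was thus the highest of all. The log2 fold change was 2.54 (SE 0.335, edgeR adjusted p 0.000275). Serpine2 was too low to be fitted without mouse 2, in thinned cells and without cells that also passed another type's gate, and it passed in the other 19 alternatives.

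**Figure D2:**
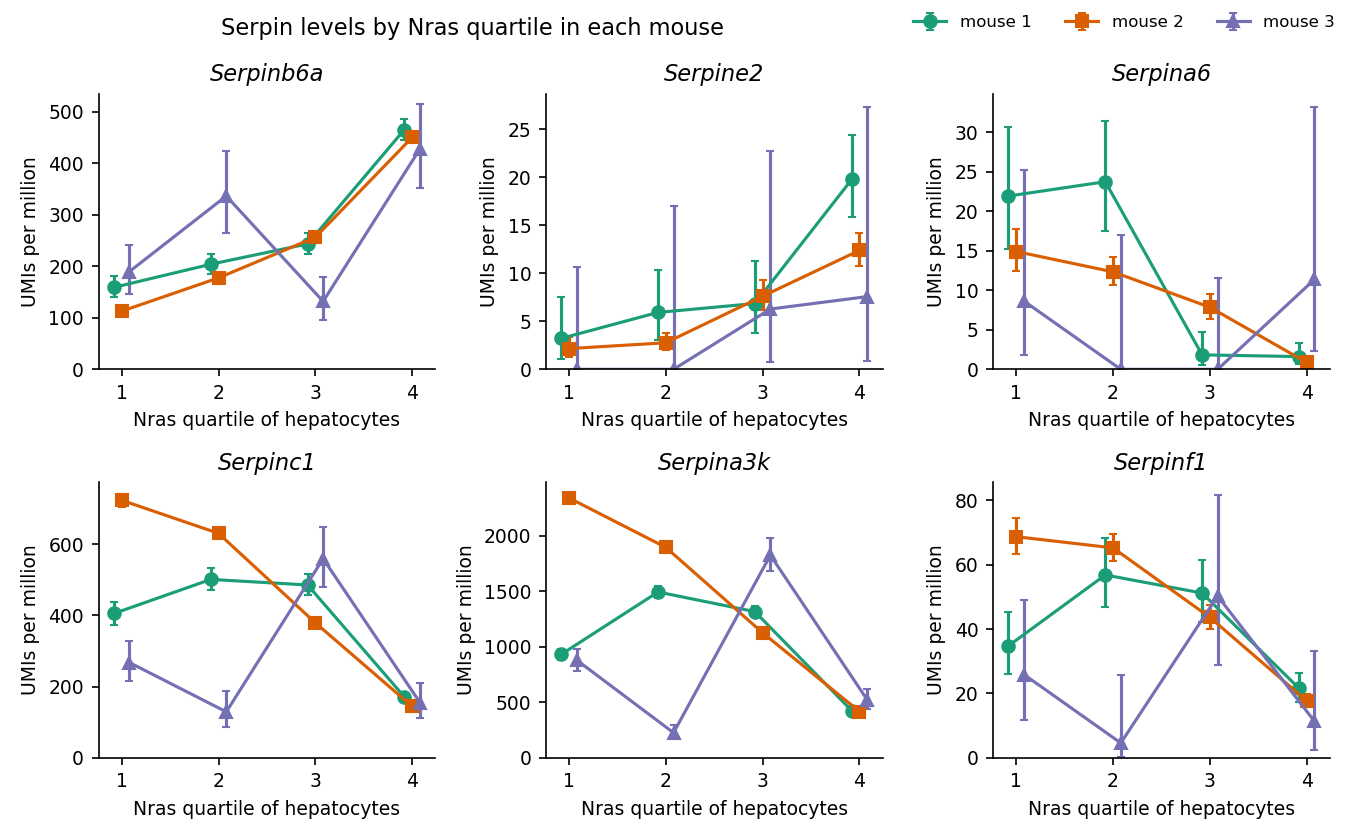
CPM of 6 serpin genes in hepatocytes by Nras quartile (1 lowest, 4 highest), one line per mouse, with exact 95% Poisson intervals that cover counting error only. In all 3 mice Serpinb6a was highest in quartile 4, and Serpinc1, Serpina3k and Serpinf1 were lower in quartile 4 than in quartile 1; mouse 3 rests on 8 to 46 cells a quartile.

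Inhibitors of coagulation did not move together. Serpinc1 (clade C, chr1:160978585-161005863, plus strand) encodes antithrombin, the main inhibitor of thrombin and factor Xa. It had 405, 501, 486 and 171 CPM in mouse 1, 724, 631, 379 and 144 CPM in mouse 2, and 268, 129, 559 and 155 CPM in mouse 3. The fall set in only in the highest quartile in mouse 1 and step by step in mouse 2, and the lowest and highest quartiles did not overlap over the mice. Its log2 fold change was −1.55 (SE 0.417, edgeR adjusted p 0.0189). Serpind1 (clade D), heparin cofactor II, went from 215 to 289 CPM, from 400.04 to 286 CPM and from 43.2 to 197 CPM in mice 1, 2 and 3. The mice differed in direction, and the change of 0.30 (SE 0.371, edgeR adjusted p 0.638) changed sign in 6 of 22 alternatives. Serpina10, the inhibitor of factor Xa that works with protein Z, had 30.3 to 116 CPM and a change of −0.33 (SE 0.249, edgeR adjusted p 0.401).

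Clade F and G genes split in the same way. Serpinf1 encodes PEDF, a secreted serpin that inhibits no protease. It had 34.8, 56.9, 51.2 and 21.6 CPM in mouse 1, 68.7, 65.3, 43.7 and 17.7 CPM in mouse 2, and 25.9, 4.61, 50.3 and 11.4 CPM in mouse 3. The highest quartile was lower than the lowest in every mouse, by −1.51 on the log2 scale (SE 0.330, edgeR adjusted p 0.00595). Its neighbour on chromosome 11, Serpinf2, encodes alpha-2-antiplasmin, the main inhibitor of plasmin. Serpinf2 went from 485 to 254 CPM across the quartiles of mouse 2 but went from 252 to 298 CPM in mouse 1 and from 121 to 250.1 CPM in mouse 3, with a fitted change of −0.04 (SE 0.296, edgeR adjusted p 0.956). Serping1, the C1 inhibitor of complement, showed the same pattern, from 198 to 101 CPM in mouse 2, 132 to 134 CPM in mouse 1 and 46.1 to 144 CPM in mouse 3. Among cells with at least 20000 UMIs, Serpind1, Serpinf2 and Serping1 were all called lower. The lowest quartiles of mice 1 and 3 were shallow, with medians of 10816 and 7068 UMIs a cell against 33334 in mouse 2, and the 5 hepatocyte genes made up a median of 2.44 and 1.53% of UMIs there, against 11.02% in mouse 2. The part of depth and of these genes in the results was not tested.

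In clade A, Serpina6 (chr12:103646630-103657212, minus strand) changed the most. It encodes corticosteroid-binding globulin, a hormone carrier that does not inhibit proteases. It had 21.9, 23.7, 1.83 and 1.61 CPM in mouse 1 and 14.9, 12.3, 7.85 and 0.87 CPM in mouse 2. Mouse 3 had 3 UMIs in the lowest and 3 in the highest quartile, 8.63 and 11.4 CPM, too few to show a direction. The fitted change was −3.81 (SE 0.603, edgeR adjusted p 0.000829), and the call was lost without mouse 2 and by the DESeq2 Wald test (−2.53, adjusted p 0.0667). In quartile 2 of mouse 1, 37 of its 48 UMIs came from 1 cell. The other hormone carrier, Serpina7 (thyroxine-binding globulin), went from 170 to 60.1 CPM over the quartiles of mouse 2, but went from 116 to 100.3 CPM in mouse 1 and from 5.76 to 109.9 CPM in mouse 3, and its change of −0.33 (SE 0.536, edgeR adjusted p 0.736) did not pass. Of the 29 UMIs in the highest quartile of mouse 3, 26 came from 1 cell.

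The Serpina3 genes are the mouse expansion of alpha-1-antichymotrypsin, which inhibits cathepsin G and chymase. Serpina3k was the most abundant of them and had 932, 1494, 1317 and 425 CPM in mouse 1, 2342, 1896, 1127 and 417 CPM in mouse 2, and 881, 226, 1826 and 523 CPM in mouse 3. All 3 mice were lower in the highest than the lowest quartile, but they spread widely and the change of −1.51 (SE 0.539, edgeR adjusted p 0.0683) missed the threshold, which 9 of 22 alternatives passed. Serpina3m had 84.5 against 50.1 CPM, 178 against 62.3 CPM and 69.1 against 49.3 CPM in the lowest and highest quartile of mice 1, 2 and 3, with a change of −1.11 (SE 0.298, edgeR adjusted p 0.0194) that was lost in 7 of 22 alternatives. Serpina3n, which also inhibits granzyme B, had 42.5 against 36.1, 94.6 against 34.1 and 34.5 against 15.2 CPM, a change of −0.99 (SE 0.285, edgeR adjusted p 0.0271) that was lost in 10 of 22 alternatives. Serpina3g, an intracellular inhibitor of cathepsins known from lymphocytes, was tested at 0.23 to 26.5 CPM and did not pass. Serpina3f and Serpina3i were too low.

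Serpina11 and Serpina12 fell in 3 of 3 mice. Serpina11 went from 38.0 to 23.0, from 62.9 to 22.95 and from 25.9 to 22.7 CPM (log2 fold change −1.17, SE 0.237, edgeR adjusted p 0.00385). Serpina12, which encodes the adipokine vaspin, went from 53.5 to 22.1, from 43.4 to 24.4 and from 46.1 to 26.5 CPM (−1.03, SE 0.239, edgeR adjusted p 0.00851). Serpina9, known from germinal centre B cells, had at most 3.22 CPM.

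The total of the 5 alpha-1-antitrypsin copies changed little, whereas the copies differed. Together they had 23577 against 24489 CPM in the lowest and highest quartiles of mouse 1, 32271 against 26210 CPM in mouse 2 and 19861 against 20960 CPM in mouse 3. Serpina1b took up 30.9, 28.7 and 26.1% of their UMIs in the lowest quartile of mice 1, 2 and 3 and 44.6, 44.7 and 42.5% in the highest. The difference was 15.3 percentage points (SD 1.47, n = 3 mice), and the shares did not overlap. Serpina1c went the other way, from 23.1, 24.1 and 27.3% to 14.3, 13.6 and 16.2%, a difference of −10.1 points (SD 1.22, n = 3 mice). The share of Serpina1e differed by −7.67 points (SD 1.27, n = 3 mice), and Serpina1d went from 3.87 to 1.79% on average. Serpina1a, the copy that shares the most read windows with another gene, went from 28.3 to 32.8%. With 3 mice an exact permutation test of paired shares cannot give a two-sided p under 0.25, which each of the 5 reached.

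By level, Serpina1b went from 7289 to 10912 CPM in mouse 1, from 9267 to 11722 CPM in mouse 2 and from 5192 to 8905 CPM in mouse 3. It was higher in 3 of 3 mice, with a change of 0.55 (SE 0.186, edgeR adjusted p 0.0543) that missed the threshold, and 7 of 22 alternatives called it. Serpina1c (−0.81, SE 0.224, edgeR adjusted p 0.0221) and Serpina1d (−1.16, SE 0.282, edgeR adjusted p 0.0115) fell. Serpina1c had 5438 against 3508, 7766 against 3575 and 5428 against 3399 CPM, and Serpina1d 762 against 372, 997 against 393 and 1048 against 493 CPM, in the lowest and highest quartile of mice 1, 2 and 3. Serpina1e was lower in 3 of 3 mice (−1.14, SE 0.387, edgeR adjusted p 0.0558) and 9 of 22 alternatives called it. Serpina1a changed by 0.15 (SE 0.184, edgeR adjusted p 0.635). All 5 copies share the 59 promoter bases printed above, which lie further upstream in Serpina1e.

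**Figure D3:**
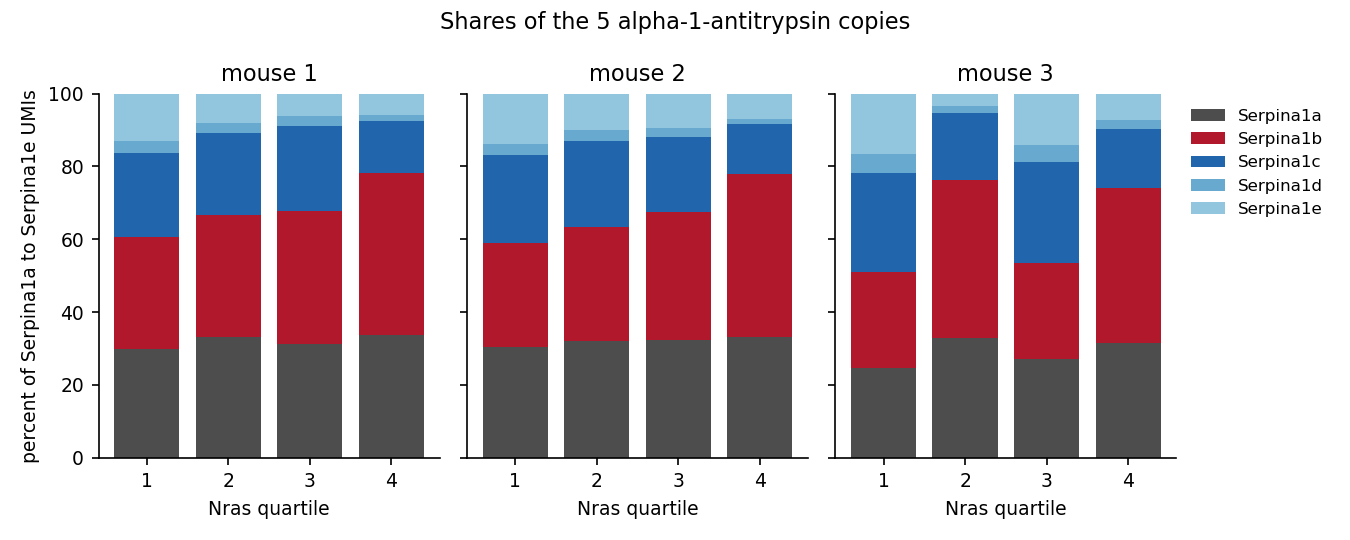
Percent of the UMIs of Serpina1a to Serpina1e that came from each copy, by Nras quartile of hepatocytes (1 lowest, 4 highest) in each mouse. In every mouse Serpina1b went from 26.1 to 30.9% in quartile 1 to 42.5 to 44.7% in quartile 4, while the shares of Serpina1c, Serpina1d and Serpina1e were smaller in quartile 4.

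Serpinh1 (clade H) encodes HSP47, a chaperone of collagen in the endoplasmic reticulum and no inhibitor. Its call in hepatocytes rests on few UMIs. It had 6, 2, 1 and 0 UMIs in mouse 1, 8, 2, 5 and 2 UMIs in mouse 2 and 11, 1, 5 and 4 UMIs in mouse 3, and its change was −2.58 (SE 0.792, edgeR adjusted p 0.0361). The call was lost or the gene too low in 15 of 22 alternatives. Serpinh1 and the endothelial list were both lower in the highest than in the lowest quartile of every mouse. In mouse 2, however, the list was highest in quartile 3 and Serpinh1 in quartile 1. The 8 markers, of which each had UMIs in every sum except Stab2 in the highest quartile of mouse 1, summed to 320, 122, 77.3 and 19.1 CPM over the quartiles of mouse 1, 29.6, 16.7, 37.8 and 17.2 CPM in mouse 2, and 3721, 660, 1810 and 1732 CPM in mouse 3. Their part in the fall was not tested.

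The plasmacytoid dendritic, stellate and cholangiocyte lists were higher in the highest than in the lowest quartile of every mouse, and the B list was lower. The dendritic list went from 116 to 23.0, from 10.8 to 11.1 and from 77.7 to 15.2 CPM in mice 1, 2 and 3. Its part in the values of Serpinb6b and Serpinb9 was not tested. The macrophage, T and NK, neutrophil and monocyte lists did not share a direction over the mice. Of the 1618 hepatocytes, 652 also passed the gate of another type, 574 of them that of plasmacytoid dendritic cells. The 8 plasmacytoid markers, of which 3 to 6 had UMIs in a sum, summed to 976 against 2322, 903 against 2100.2 and 771 against 2304 CPM in the lowest and highest quartiles of mice 1, 2 and 3. Ly6d and Bst2 gave nearly all of these UMIs, while the defining marker Siglech had 0 or 1 UMI in each sum and Cox6a2 none. The 8 stellate markers, of which 2 to 8 had UMIs, summed to 86.4 against 446, 107 against 472 and 109 against 284 CPM, mostly from Ecm1, with Col1a1 at 0 to 2 UMIs. The 8 cholangiocyte markers, of which 2 to 7 had UMIs, summed to 61.2 against 166, 64.5 against 123.3 and 17.3 against 109.9 CPM, mostly from Sox9, with Krt7 at 0 to 4 UMIs. Without the cells that passed another gate, Serpinb6a was called higher and 10 serpins lower. The share of all genes called in that refit is not given.

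Over fixed classes of Nras, which do not depend on the hashtag call, the 3357 hepatocytes gave graded levels. Classes under 300, 300 to 1000, 1000 to 3000 and 3000 or more Nras CPM held 2653, 357, 197 and 150 cells. Serpinc1 had 516, 236, 106 and 45.9 CPM in them, Serpina3k 1519, 598, 325 and 142 CPM, and Serpina7 170, 91.6, 49.6 and 30.7 CPM. Each of the 3 was lower in each class than in the one before. Serpinb6a had 199.8, 349, 506 and 556 CPM and Serpine2 4.66, 9.75, 13.1 and 16.3 CPM, with the reverse order. Serping1 went from 175 to 72.4 CPM and Serpinf2 from 365 to 215 CPM, while Serpina1a, at 8142 to 8739.8 CPM, was nearly level. These sums pool the mice, with mouse 2 the largest part of the called cells, and have no replicate test. Median UMIs per cell were 18088, 36125, 56109 and 50080, so depth moved with the class.

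**Figure D4:**
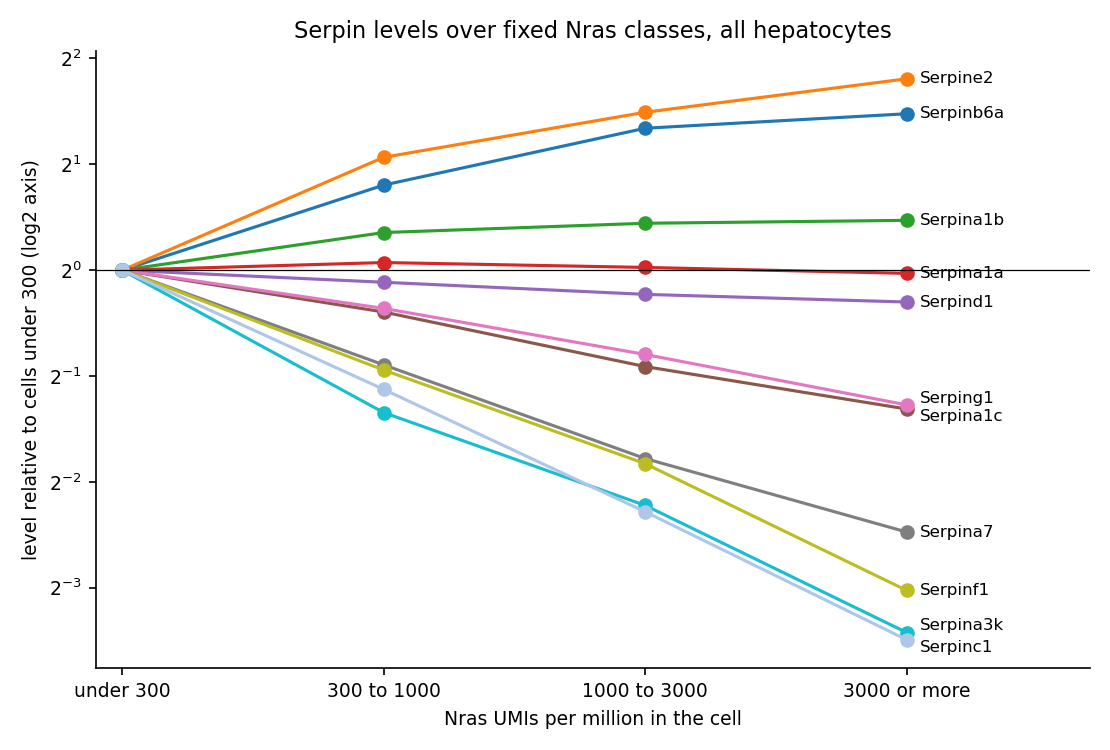
Level of 11 serpin genes in all 3357 hepatocytes over 4 fixed classes of Nras CPM, relative to cells under 300 (log2 axis), pooled over mice and without a replicate error. Serpine2 and Serpinb6a climb, Serpina1a stays near 1 and Serpinc1 goes from 516 to 45.9 CPM.

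The middle quartiles were set against the outer ones because the study relates hepatocyte states to NRAS dose, and a change that is not linear with dose can differ between them. By edgeR's quasi-likelihood test no gene passed (0%), with 792 of 9498 at an unadjusted p under 0.05, and by DESeq2 no serpin did. Of the 25 serpins, 5 were at an unadjusted p under 0.05, each higher in the middle: Serpina10, Serpina3n, Serpina6, Serpinc1 and Serpinf1, with log2 differences of 0.42, 0.54, 1.03, 0.73 and 0.69. The serpin median was 0.26, against 0.02 over all genes. The quartiles also differed in depth, as given above, and the part of depth in these values was not tested. Between the highest quartile and quartile 3, 5.02% of genes passed (2.28% higher and 2.74% lower), among them 4 serpins, with Serpinb6a at 1.08 (SE 0.261) and Serpine2 at 1.00 (SE 0.260) higher and Serpinc1 at −1.63 (SE 0.418) and Serpinf1 at −1.31 (SE 0.331) lower.

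Proteases, cofactors and receptors of the serpins were taken from a list of 26 genes, of which 19 were tested between the highest and lowest quartiles and 3 were higher and 4 lower, against 8.13% and 10.9% of all genes. Plaur and Plat, genes of plasminogen activation, rose. Plaur, the urokinase receptor, went from 13.5 to 60.3, from 4.45 to 87.1 and from 8.63 to 56.8 CPM in mice 1, 2 and 3, a change of 3.44 (SE 0.361, edgeR adjusted p 7.86e-05). Plat, tissue plasminogen activator, went from 2.58 to 58.0 and from 6.37 to 48.3 CPM in mice 1 and 2 and from 0 UMIs, which allows up to 8.63 CPM, to 37.9 CPM in mouse 3 (3.33, SE 0.344, edgeR adjusted p 7.06e-05). The groups did not overlap for either gene. The highest quartile of mouse 3 held 10 UMIs of Plat, 7 of them in 1 cell, and 15 of Plaur, 8 of them in 1 cell. Ctsl, the lysosomal protease cathepsin L, went from 566 to 1246, from 645 to 1182 and from 653 to 1012 CPM (0.89, SE 0.216, edgeR adjusted p 0.0112). Plau, urokinase itself, had at most 3.14 CPM, from 1 UMI in quartile 3 of mouse 3. The other quartiles of mouse 3 had 0 UMIs, which allows up to 13.8 CPM.

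The liver-made clotting proteases that fell were F7 (−1.60, SE 0.361), F10 (−1.49, SE 0.299), Klkb1, plasma kallikrein (−1.10, SE 0.340), and F9 (−0.73, SE 0.239), at edgeR adjusted p values of 0.0071, 0.00363, 0.0384 and 0.0489. F10 was lower in 3 of 3 mice, and F7, F9 and Klkb1 were lower in mice 1 and 2. In mouse 3, F7, F9 and Klkb1 had 2, 7 and 6 UMIs in the lowest quartile and 3, 6 and 8 in the highest. These are too few to show a direction. Thrombin's gene F2 (−0.13, SE 0.290) did not pass, nor did Plg, the gene of plasminogen (−0.83, SE 0.373). Without mouse 2 none of the 4 falls passed, and Plat and Plaur did. Over the 22 alternatives F9 lost its call in 11 and Klkb1 in 9, against 4 for F7 and 2 for F10.

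Across cell types, barcodes under the hepatocyte rule were gated by markers. At least 10 cells in a sum were found for endothelial cells (532 cells in all), dendritic cells (332), T and NK cells (63), B cells (44) and macrophages (37), and 12 serpins were among the 2800 genes tested, each type against the mean of the others. These cells are not those the sort was made for, and 457 of the endothelial cells came from mouse 3. UMIs of the 5 hepatocyte genes were present in all of them, at 3.63 to 7.9% of their level in hepatocytes. Of the plasma serpins, Serpina1a, Serpina1b, Serpinc1, Serpind1, Serpinf2 and Serping1 had 0.305 to 2.18 times the CPM that this ratio gives. Whether their CPM in these types is background was not tested. Serpina1b passed in B cells (0.90, SE 0.250, edgeR adjusted p 0.0253), at 1.35 times the ratio. Others were further above it. In endothelial cells Serpina1d was at 4.29, Serpina1e at 3.04 and Serpina1c at 2.80 times the ratio, and Serpina6 at 7.90 times, from 10 UMIs. Serpinf1 was at 3.61 times in dendritic cells. In macrophages Serpina3k was at 2.94 times, Serpina12 at 6.62 times, from 3 UMIs, and Serpina3n at 14.6 times, from 10 UMIs of mouse 2, 9 of them in 1 cell.

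Each type is named by its gate. Serpinb6b and Serpinb9 were highest in dendritic cells. Serpinb6b was at 879, 909 and 2599 CPM in mice 1, 2 and 3, of which mouse 3 had 3 cells and stayed out of the fit, and it was 4.07 higher than in the other types on the log2 scale (SE 0.405, edgeR adjusted p 5.95e-06). In dendritic cells 23.7% of genes passed (16% higher and 7.75% lower). Serpinb9, the granzyme B inhibitor, had 340 and 352 CPM in mice 1 and 2 (4.88, SE 0.704, edgeR adjusted p 0.00013), against 41.9 CPM in endothelial cells, 36.5 in macrophages, 91.3 in T and NK cells, 6.53 in hepatocytes and 0 in B cells. Serpinb1a, the inhibitor of leukocyte elastase, had 74.3 and 42.5 CPM in mice 1 and 2 (3.88, SE 0.798, edgeR adjusted p 0.00191). The 3 cells of mouse 3 gave 698 CPM of Serpinb1a, from 18 UMIs. Serpinb6a was lower in dendritic cells (−1.38, SE 0.460, edgeR adjusted p 0.0378), at 24.7 CPM. That call was lost in 4 of 10 alternatives, and the change was −0.095 without mouse 3.

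In endothelial cells 38.3% of genes passed (24.8% higher and 13.6% lower), and Serpinh1, Serpinb6a and Serpina3g were higher. Serpinh1 had 140, 127 and 155 CPM in mice 1, 2 and 3 (6.76 against the mean of the other types, SE 0.846, edgeR adjusted p 2.76e-05). Of those types, T and NK cells and B cells held 0 UMIs, dendritic cells 1 and macrophages 9, all in 1 cell. Hepatocytes, which were not in the fit, had 0.60 CPM. Serpinb6a had 286, 406 and 402 CPM (2.71, SE 0.297, edgeR adjusted p 1.42e-06) and was also high in hepatocytes, at 277 CPM. Serpina3g had 178, 139 and 142 CPM (2.39, SE 0.812, edgeR adjusted p 0.0291). It was not particular to endothelial cells, with 157 CPM in macrophages, 102 in dendritic cells and 96.1 in T and NK cells. B cells held 0 UMIs of it, and in macrophages 26 of its 43 UMIs came from 1 cell. Serpina3f and Serpina3i, at 72.7 and 5.99 CPM, were higher than in hepatocytes, where they had 0.31 and 0.020 CPM. Serpina3f also had 40.1 CPM in macrophages and 28.8 CPM in T and NK cells, from 11 and 6 UMIs. In macrophages, where 15.6% of genes passed (12.2% higher and 3.32% lower), Serpinb6a was called, with 252 and 268 CPM in the 2 mice with at least 10 cells (2.49, SE 0.385, edgeR adjusted p 0.000176).

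B cells, where 12.1% of genes passed (7.96% higher and 4.18% lower), held Serpinb1a at 125, 34.0 and 174 CPM (4.64, SE 0.912, edgeR adjusted p 0.00283). These values rest on 4, 1 and 11 UMIs. In mice 2 and 3 dendritic cells had more of it, at 42.5 CPM and at 698 CPM from 3 cells. Serpinb6b, Serpinb6a and Serpina3g were lower in B cells, with 1, 2 and 0 UMIs over the 3 mice. The 0 UMIs of Serpina3g allow up to 24.1 CPM. In T and NK cells 21.4% of genes (12.2% higher and 9.25% lower) but 0 of 12 serpins passed in edgeR, with 2 at an unadjusted p under 0.05. Serpini1 (clade I) encodes neuroserpin, an inhibitor of tissue plasminogen activator. It had 3 UMIs each in B cells (24.1 CPM) and in T and NK cells (14.4 CPM). The far deeper sum of hepatocytes held 30 UMIs, which is 0.31 CPM. Without mouse 3 the calls over all types were 6, down from 13, among them Serpinb6b and Serpinb9 in dendritic cells and Serpinb6a in endothelial cells and macrophages.

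**Figure D5:**
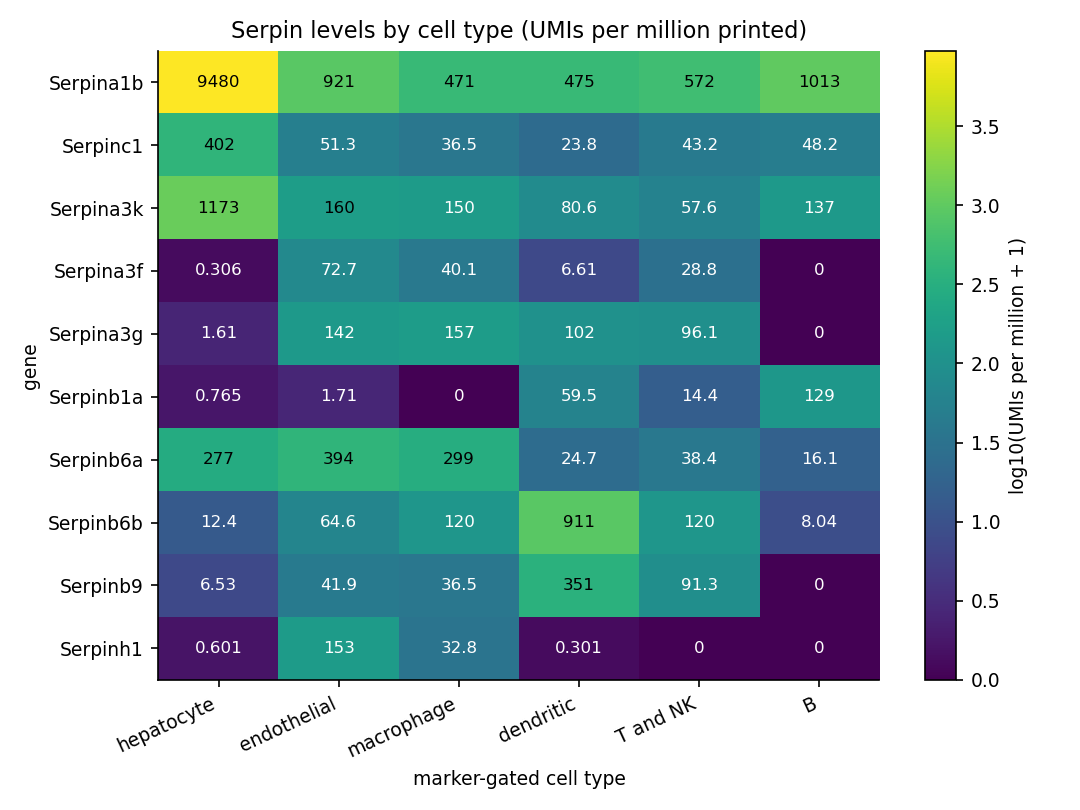
CPM of 10 serpin genes in hepatocytes and 5 marker-gated cell types (colour: log10 of the value plus 1), summed over mice. Serpinb6b and Serpinb9 peak in dendritic cells at 911 and 351, Serpinh1 in endothelial cells at 153 and Serpinb1a in B cells at 129, while Serpina1b, Serpinc1 and Serpina3k are highest in hepatocytes. The Serpinb1a value in B cells rests on 16 UMIs, and by mouse dendritic cells were higher in mice 2 and 3.

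By mouse alone, 24 serpins reached 10 CPM in the hepatocytes of some mouse, and 9 of these differed at least 2-fold between the highest and the lowest mouse, against 19.2% of 7565 genes by the same rule. Among them were Serpina11, Serpina3g, Serpina7, Serpinb6b, Serpinb9, Serpind1, Serpine2 and Serpinh1. Serpinh1 had 0.89, 0.32 and 18.3 CPM in mice 1, 2 and 3, beside the endothelial RNA of mouse 3. Serpine2 had 11.7, 6.95 and 3.49 CPM and Serpina7 156, 138 and 53.2 CPM, each lowest in mouse 3. Serpinb6b was highest in mouse 1, at 32.1 CPM against 10.6 and 6.98. Among cells with at least 10000 UMIs, 4 of 22 serpins were that far apart, against 1049 of 7394 genes. No test can be made between the constructs with 1 control mouse, and with either pairing a difference between mice cannot be told apart from one between constructs.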

How the data were processed

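Livers were dissociated, hashtagged per mouse, sorted for mVenus, pooled and run on the 10x Genomics 3′ v3 platform. The authors deposited UMI counts per gene and barcode, aligned to mm10 (Cell Ranger 2.1.1 in the processing notes, 3.0.2 in the matrix header), and hashtag UMI counts made with CITE-seq-Count. Barcodes were called for hashtags with HTODemux (Seurat 5.3.0, quantile 0.99), which gave 5482 with 1 tag, 271 doublets and 7386 negatives. No doublet caller was run, so doublets within a mouse remain. Medians per cell and UMIs per sum are given in the report.

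UMIs of the 1618 hepatocytes were summed per hashtag and Nras quartile and fitted with edgeR 4.0.16 (quasi-likelihood, TMM, filterByExpr, Benjamini-Hochberg over all genes tested). The hashtag was a block because its sums came from the same mouse. SE was the log2 fold change divided by the root of F. Cell type gates needed at least 3 markers and 2 times the UMIs of any other type. DESeq2 1.42.0, scipy 1.17.1 and MAFFT 7.526 were also used, and the fits were tested on simulated data. Intervals and the limit for a count of 0 (3 counts) cover counting error only.

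Values per mouse are given for serpins that passed, and other serpins at 10 CPM or more are named with their level; listed partners that passed are named. Serpinb5, Serpinb12, and partners or serpins named below these limits were chosen after their values were seen. The members, gene lists and tests were chosen with earlier results of these data known. 1 gene is not reported here.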

Additional observations from a re-analysis of the deposited data

Results flagged for a closer look

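In 5 of the 25 tested serpins the mouse that stands alone as the D38A control under one of the 2 pairings moved against both G12V mice between the lowest and highest Nras quartile, by the log2 ratio of CPM + 1. The share of all genes that did so is not given, so the 5 cannot be set against it. None of these differences was tested, since the control is 1 mouse. With mouse 1 as the control, as deposited, this was Serpina10, at 0.093 against −0.72 and −0.061 in mice 2 and 3. With mouse 3 as the control, as in the methods, Serpina7 was at 4.04 against −0.21 and −1.48 in mice 1 and 2, Serpinb9 at 0.75 against −1.01 and −0.43, Serpina3g at 0.38 against −1.24 and −0.27, and Serpina6 at 0.36 against −3.13 and −3.09. In mouse 3 the values of Serpinb9, Serpina3g and Serpina6 rest on 3 to 7 UMIs a quartile. Serpina7 had 5.76 CPM in the lowest quartile of mouse 3, where the median cell had 1.53% of UMIs from the hepatocyte genes, and 26 of its 29 UMIs in the highest quartile came from 1 cell.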

How the results depend on the processing

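Mouse 2 held most UMIs, and mouse 3 had 102 cells. Between the highest and lowest quartiles 12 serpins were called, against 1 to 15 with a mouse left out (1 without mouse 2), 3 with no replicate block and 6 in cells thinned to 5000 UMIs. The other alternatives gave counts within 1.5 times. In the middle quartiles 4 serpins were higher with hashtags by a fixed rule, against 0. Of 19 partners tested 7 were called, against 2 to 10 with a mouse left out, 2 with no replicate block, 4 by DESeq2, 4 from 2000 UMIs, 13 from 20000 UMIs, 12 with fixed Nras limits and 13 with cells ranked by mVenus. Over cell types 6 to 13 serpin calls were made with a mouse left out and 27 when gated whatever the hepatocyte share, against 13. By mouse 4 genes, against 9, were 2-fold apart from 10000 UMIs. The share of all genes called is not given for the refits, so their serpin counts cannot be set against it. The causes were not tested.

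Signs changed as follows, on the log2 scale. Serpina1a became −0.15 from 20000 UMIs, −0.057 ranked by mVenus and −0.034 with the fixed hashtag rule. Serpina7 became 0.48 by DESeq2. Serpind1 became −0.060 from 10000 UMIs, −0.55 from 20000 UMIs, −0.13 with the hepatocyte rule at 2%, −0.16 with fixed Nras limits and −0.29 ranked by mVenus. Serpinf2 became 6.18e-05 by DESeq2, 0.0089 with no low filter, 0.24 from 2000 UMIs, 0.10 thinned, 0.059 with the hepatocyte rule at 0.5%, 0.051 under 10% mitochondrial UMIs, and, added after seeing the data, 0.027 without the largest cell of the highest quartile and 0.047 with quartiles cut within each mouse. Serping1 became 0.0070 by DESeq2, 0.033 from 2000 UMIs and 0.056 under 10% mitochondrial UMIs. Serpina1b in B cells became −0.041 when gated whatever the hepatocyte share. With a mouse left out, values ranged from −0.64 to 0.14 for Serpina10, −0.97 to 0.96 for Serpina7, −0.11 to 1.02 for Serpind1, −0.43 to 0.63 for Serpinf2, −0.55 to 0.63 for Serping1 and −1.32 to 0.071 for Klkb1.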
